A study of Mus musculus with 4 samples.

Results

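The regions described here are the broadest stretches of open chromatin in G1ER cells, a mouse erythroblast line: 113 of the 15316 regions obtained by merging the deposited peaks of 4 libraries on chromosomes 1 to 19 and X. The members were chosen by measured width: a region was kept when each of the 4 libraries had a peak in it, which left 8698 regions, and when the merged width was at least 1200 bp. Accessibility was measured by ATAC-seq, in which a transposase cuts open DNA and inserts sequencing adapters. There were 2 libraries of G1ER cells without Chd7 (Chd7-/-) and 2 of wild-type G1ER cells, each from 50000 cells grown with EPO and SCF-conditioned medium and given no treatment. In each genotype the first replicate has the time label 1 h and the other 2 h, and the protocol gives 1 to 2 h of transposition at 37 C. All 4 libraries share the G1ER background: they lack Gata1 and express a GATA1-estrogen receptor fusion protein. The descriptions give both Chd7-/- libraries a single code, so that an effect of 1 clone and the genotype cannot be told apart, and nothing in the labels says that replicates came from separate cultures. The spread between replicates may therefore be technical.

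CHD7 is a chromodomain helicase that moves nucleosomes and is found at active promoters and enhancers. A broad accessible region usually spans several nucleosome-depleted stretches, and at promoters with many CG dinucleotides the open stretch often runs from upstream of the start site into the first exon and intron. A peak caller marks each base at which cut fragments pile up above the local background, so the called width depends on how the edges and the inner dips of the signal compare with the calling threshold as well as on the chromatin.

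Promoters of 7 of these regions show the kinds of sequence they hold: Sp1 and Klf11, with tall summits and open chromatin on both sides of the start site, Polr2a, Srsf6, Pcbp1 and Asxl1, with many CG dinucleotides or a called interval that differed between genotypes, and Btg3, whose window at its first start site has few CG dinucleotides and no GC box. Each sequence runs 5' to 3' on the gene's own strand from 250 bases before to 50 bases after a RefSeq start site (RefSeq, GRCm38.p6). Capitals mark the GC box, GGGCGG or its reverse complement CCGCCC, the motif bound by the Sp and Klf families of zinc finger factors. The windows are chr15:102406066-102406365 on the plus strand for Sp1, chr12:24651121-24651420 on the plus strand for Klf11, chr11:69758584-69758883 on the minus strand for Polr2a, chr2:162931258-162931557 on the plus strand for Srsf6, chr6:86526140-86526439 on the minus strand for Pcbp1, chr2:153345580-153345879 on the plus strand for Asxl1 and chr16:78377132-78377431 on the minus strand for Btg3.
Sp1: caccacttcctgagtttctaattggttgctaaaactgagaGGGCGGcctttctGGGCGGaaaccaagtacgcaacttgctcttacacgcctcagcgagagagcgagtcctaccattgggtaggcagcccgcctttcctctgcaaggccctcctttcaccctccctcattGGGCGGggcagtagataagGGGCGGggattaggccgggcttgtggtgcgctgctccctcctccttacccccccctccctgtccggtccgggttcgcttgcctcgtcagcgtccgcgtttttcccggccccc
Klf11: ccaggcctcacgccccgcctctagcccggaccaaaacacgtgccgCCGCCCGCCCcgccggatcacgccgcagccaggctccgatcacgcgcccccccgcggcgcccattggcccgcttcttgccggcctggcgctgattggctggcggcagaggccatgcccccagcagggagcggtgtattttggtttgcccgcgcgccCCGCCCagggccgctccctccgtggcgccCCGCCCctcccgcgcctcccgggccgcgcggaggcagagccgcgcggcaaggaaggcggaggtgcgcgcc
Polr2a: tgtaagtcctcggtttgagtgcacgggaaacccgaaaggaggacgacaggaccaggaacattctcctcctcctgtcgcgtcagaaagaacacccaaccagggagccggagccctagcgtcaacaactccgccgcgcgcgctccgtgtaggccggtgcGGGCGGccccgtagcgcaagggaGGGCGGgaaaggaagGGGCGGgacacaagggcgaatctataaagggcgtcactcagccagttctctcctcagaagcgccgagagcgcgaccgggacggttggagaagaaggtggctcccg
Srsf6: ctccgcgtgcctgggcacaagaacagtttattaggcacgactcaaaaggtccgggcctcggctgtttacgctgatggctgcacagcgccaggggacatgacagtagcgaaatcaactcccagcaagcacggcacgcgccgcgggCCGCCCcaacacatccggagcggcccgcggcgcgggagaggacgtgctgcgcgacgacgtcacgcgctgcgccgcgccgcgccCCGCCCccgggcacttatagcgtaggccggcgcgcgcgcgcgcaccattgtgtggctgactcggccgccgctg
Pcbp1: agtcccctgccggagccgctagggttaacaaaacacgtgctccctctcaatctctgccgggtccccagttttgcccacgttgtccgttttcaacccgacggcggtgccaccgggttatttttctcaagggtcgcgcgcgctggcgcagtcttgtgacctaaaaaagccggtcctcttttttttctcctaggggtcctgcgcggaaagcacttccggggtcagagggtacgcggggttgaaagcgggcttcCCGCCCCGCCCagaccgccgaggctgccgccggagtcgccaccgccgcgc
Asxl1: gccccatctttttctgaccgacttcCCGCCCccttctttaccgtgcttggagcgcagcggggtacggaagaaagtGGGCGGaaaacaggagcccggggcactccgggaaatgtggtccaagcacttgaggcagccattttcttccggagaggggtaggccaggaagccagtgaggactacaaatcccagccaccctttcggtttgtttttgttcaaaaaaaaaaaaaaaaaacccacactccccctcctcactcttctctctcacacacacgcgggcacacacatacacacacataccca
Btg3: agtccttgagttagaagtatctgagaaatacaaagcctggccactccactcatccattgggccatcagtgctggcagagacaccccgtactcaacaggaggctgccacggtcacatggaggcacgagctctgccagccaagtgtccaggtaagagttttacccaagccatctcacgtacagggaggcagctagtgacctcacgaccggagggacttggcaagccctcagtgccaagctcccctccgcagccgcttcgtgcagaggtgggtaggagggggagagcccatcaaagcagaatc

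The Sp1 and Klf11 windows held 4 GC boxes each, the Polr2a window 3, and the Srsf6, Pcbp1 and Asxl1 windows 2 each. CG dinucleotides numbered 45 in Srsf6, 42 in Klf11, 32 in Pcbp1, 30 in Polr2a, 19 in Sp1, 13 in Asxl1 and 9 in Btg3, where the window of a second start site in the same region, not printed, held 37. The Sp1 window also held 1 match to the GATA motif, AGATAA, with 1 base between it and the last GC box.

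The 2 Chd7-/- lists held 12431 and 11361 peaks on these chromosomes, and the 2 wild-type lists held 11074 and 12033. Read depth is unknown; the lowest local background among peaks, which stands in for it, was 1.04 and 1.01 fragments in the Chd7-/- libraries and 0.787 and 1.08 in the wild-type libraries. The erythroid marker genes Epor, Tfrc and Nfe2 had a region called in all 4 libraries within 1 kb of a gene end, and Klf1, Slc4a1, Alas2, Gata1, Tal1 and Ermap had none there. Chd7 and Gata2 had none linked to them, so the peak lists do not check the deletion.

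Merged widths of the 113 regions ran from 1200 to 4544 bp with a median of 1290 bp, against a median of 635 bp for all 8698 regions. Many lay close to the limit: 58 were under 1300 bp, 22 reached 1500 bp and 4 reached 2000 bp. Just inside the limit were the regions at Smad2 (1200 bp), Tab2 (1205 bp) and Prdm15 (1209 bp), and just outside it those at Elf2 (1199 bp), Gnl1 and Prr3 (1198 bp) and Rpl7 and Rdh10 (1198 bp). Tab2, a kinase adaptor of inflammatory signalling, had 360 and 639 bp called in the Chd7-/- libraries and 892 and 672 bp in the wild-type libraries, so that its merged width came from peaks that were offset between libraries. Elf2 had 1139 and 1151 bp in Chd7-/- libraries and 1197 and 1148 bp in wild-type libraries, nearly its whole merged width in each. One further region of this width was not called in all 4 libraries. Because the rule used the merged width, called widths are given below as a description of the members; genotype had no part in the rule.

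The bases called as peak within a member had a median of 1133 and 1111 bp in the Chd7-/- libraries, against 1155 and 1208 bp in the wild-type libraries (1122 ± 15.6 against 1181.5 ± 37.5 bp, SD, n = 2 each). Both Chd7-/- medians lay below both wild-type medians, by 22 bp within the 1 h pair and by 97 bp within the 2 h pair. With 2 libraries a genotype the smallest p that an exact two-sided permutation test can give is 0.333, so no test of this difference of -59.5 bp is given. Over all 8698 regions the medians were 504 and 477 bp in the Chd7-/- libraries and 503 and 535 bp in the wild-type libraries, a difference of -28.5 bp with overlapping groups. Over the 811 regions of 900 to 1199 bp they were 842 and 795 bp against 849 and 892 bp, a difference of -52 bp. The groups did not overlap there either, so this separation was not particular to the members. On the log2 scale the median difference of the members was -0.07 and that of all regions -0.06, so relative to their size the broad regions were not set apart. Centring each library on its median turned the sign for both, to 0.01 for the members and 0.02 for all regions. A narrower region in all cells and an open region in fewer cells cannot be told apart in these bulk libraries.

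Of the 113 members, 41 (36.3%) were narrower in both Chd7-/- libraries than in both wild-type libraries, where 24.7% of all regions were, and 7 (6.19%) were wider in both, where 11.3% of all regions were. Among the regions of 900 to 1199 bp, 28.9% were narrower in both and 7.89% wider in both. Width chose the members, and 34 of them passed 1200 bp by the span of the wild-type peaks alone, 17 by that of the Chd7-/- peaks alone, 50 by that of each genotype and 12 by that of neither. Of the 41, 20 were among the 34 and 15 among the 50, so the rule bears on the excess over all regions. Within the 1 h pair 63 members were narrower in the Chd7-/- library, where 49.2% of all regions were, and within the 2 h pair 88 were, where 67.1% of all regions were. In limma's test of log2 called width, fitted over all 8698 regions with Benjamini-Hochberg adjustment, no member passed an adjusted p of 0.05 in either direction, and neither did any other region (0% called in each direction). The smallest adjusted p of a member was 0.608. At an unadjusted p under 0.05 there were 19 members (16.8%), 17 lower and 2 higher in Chd7-/- cells, and 632 of all regions (7.27%). Because width chose the members, the rule bears on this count and on its direction as well.

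**Figure D1:**
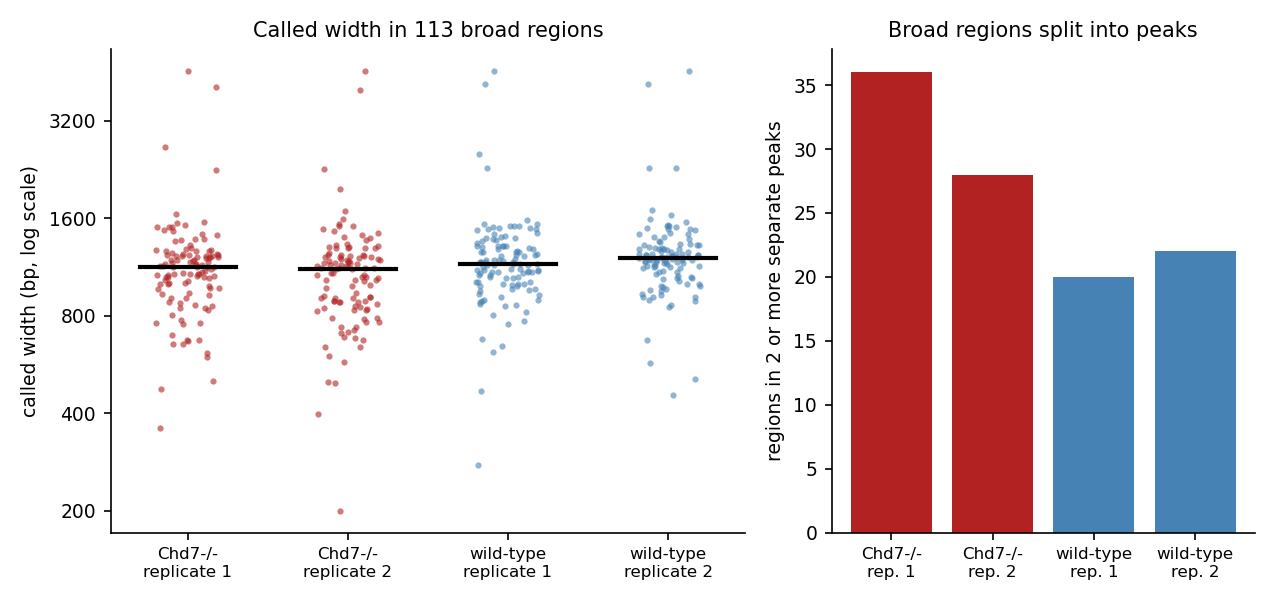
Left, bases called as peak in each of the 113 broad regions (bp, log scale), 1 point per region, by library, with the median as a bar. Right, number of the 113 regions called as 2 or more separate peaks in each library; the Chd7-/- libraries had 36 and 28, and the wild-type libraries 20 and 22.

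More of the broad regions were broken into separate peaks in each Chd7-/- library than in either wild-type library. In the Chd7-/- libraries 36 and 28 members were called as 2 or more peaks (31.9% and 24.8%), against 20 and 22 in the wild-type libraries (17.7% and 19.5%), a difference of 11. This is a description and was not tested, since a region split in 1 library is a single member only where another library bridges the gap, so that the rule bears on it. Among the 50 members whose span reached 1200 bp in each genotype on its own, 20 and 15 were split in the Chd7-/- libraries and 10 and 11 in the wild-type libraries. Among the 34 that reached it by the wild-type span alone, the counts were 7 and 6 against 7 and 8, without an excess. The 17 by the Chd7-/- span alone gave 5 and 4 against 1 and 1, and the 12 by neither gave 4 and 3 against 2 and 2. Among regions of 900 to 1199 bp the Chd7-/- libraries had 54 and 56 split regions and the wild-type libraries 58 and 47, with overlapping groups. By classes of merged width, regions of 800 to 999 bp were split in 3.56% and 3.71% of cases in the Chd7-/- libraries and in 3.41% and 2.96% in the wild-type libraries, and in the other classes under 1200 bp the groups overlapped or held no split region. In 8 members both Chd7-/- libraries were split and both wild-type libraries whole, the case for 20 of all regions (0.23%), members included. In 1 member, linked to Samt2b, the reverse held, the case for 12 of all regions (0.138%). Most of all regions were narrow and seldom split, so these shares are no like measure for the members. A further 57 members were whole in all 4 libraries and 3 were split in all 4. The gaps between peaks of a split member had medians of 151 and 185.5 bp in the Chd7-/- libraries, against 146 and 151.5 bp in the wild-type libraries, and ran from 75 to 662 bp overall.

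**Figure D2:**
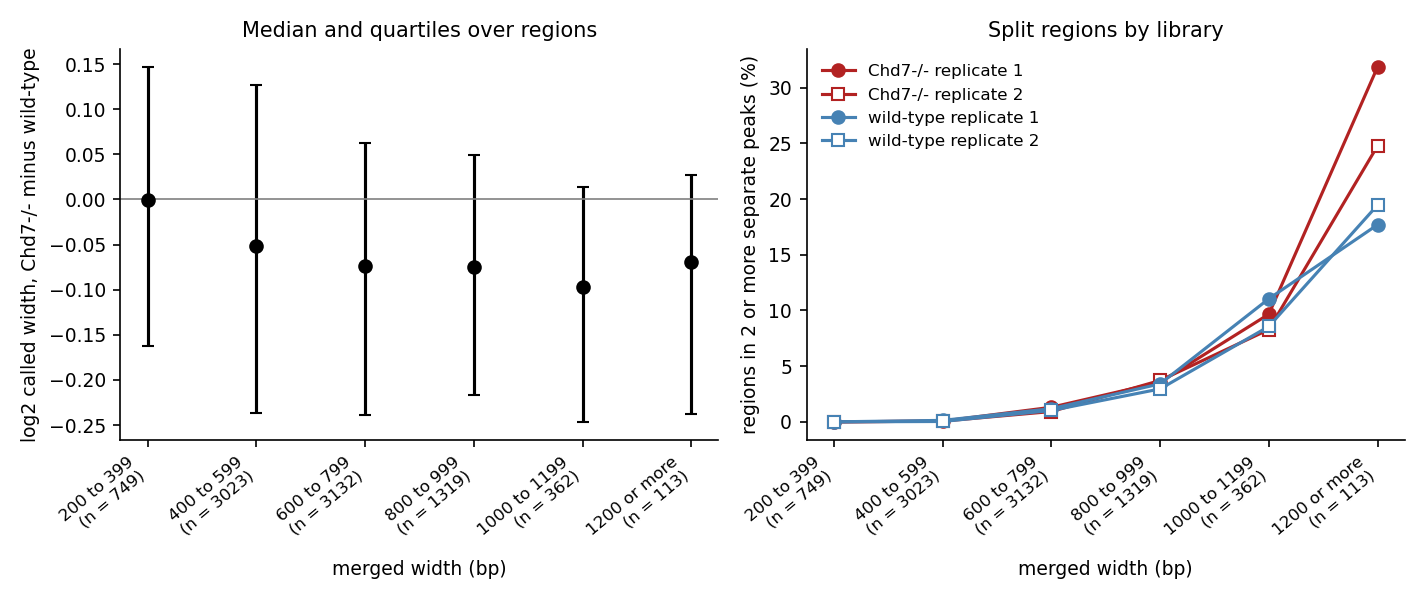
Left, difference in log2 called width, Chd7-/- minus wild-type, not centred, as median (point) and quartiles (bars) over regions, by merged width in bp. Right, share of regions called as 2 or more separate peaks in each library; in the class of 1200 bp or more it was 31.9% and 24.8% in Chd7-/- libraries and 17.7% and 19.5% in wild-type libraries.

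The 8 members split in both Chd7-/- libraries alone lay at Asxl1, the shared promoter of Cbx5 and Hnrnpa1, Mat2a, Pnrc1, Prdm15, Gin1 with Ppip5k2, a non-coding transcript near Spen, and the ribosomal RNA pseudogene Rn18s-rs5. At Asxl1 (chr2:153345418-153346639), which encodes a Polycomb-associated protein often mutated in myeloid disease, 846 and 784 bp were called in the Chd7-/- libraries, against 1185 and 1185 bp in the wild-type libraries. The Chd7-/- peaks stopped 218 and 16 bases past the start site and a second peak began at 468 and 455 bases, where each wild-type library had 1 peak through to 794 and 786 bases. At Cbx5 and Hnrnpa1 (chr15:103239276-103240610), which encode heterochromatin protein 1 alpha and an RNA-binding splicing regulator, 1009 and 1143 bp were called in the Chd7-/- libraries and 1292 and 1230 bp in the wild-type libraries. The region at Mat2a, the gene for the enzyme that makes S-adenosylmethionine, was split with overlapping widths, 904 and 1067 bp in Chd7-/- libraries and 770 and 1005 bp in wild-type libraries.

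Among the members narrower in both Chd7-/- libraries, the largest log2 differences were at Srsf6 and Btg3. Srsf6 encodes a serine/arginine-rich splicing factor, and its region (chr2:162930837-162932591) was 656 and 884 bp in the Chd7-/- libraries, against 1510 and 1519 bp in the wild-type libraries. The centred log2 difference was -0.91 ± 0.16 (SE, limma, adjusted p = 0.608). Both wild-type libraries had called bases past 1000 bases downstream of the start site, as did 1 Chd7-/- library in a separate peak, while the other ended at 161 bases. Btg3, an antiproliferative gene of the BTG/TOB family, had 503 and 497 bp in the Chd7-/- libraries and 866 and 1140 bp in the wild-type libraries (chr16:78376020-78377275), with a log2 difference of -0.91 ± 0.15 (SE, limma, adjusted p = 0.608). In both genes the groups were far apart and yet the test over all regions did not call them. The Chd7-/- peaks at Btg3 lay between 12 and 555 bases past its first start site. The wild-type peaks there lay between -94 and 1161 bases. Btg3 thus passed 1200 bp by the wild-type span alone, so the rule bears on its difference.

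Among the same members, the next in size of difference were Rprd2, Arl8a and Dennd1b. Rprd2, whose product binds the tail of RNA polymerase II, had 595 and 576 bp in the Chd7-/- libraries, against 1262 and 864 bp in the wild-type libraries. Arl8a, a small GTPase of lysosome transport, had 474 and 600 bp in the Chd7-/- libraries and 677 and 1298 bp in the wild-type libraries. At Dennd1b, an exchange factor for Rab GTPases, 614 and 498 bp were called in Chd7-/- cells and 806 and 1170 bp in wild-type cells. In these 3 regions the wild-type libraries lay far from each other, and the log2 differences of -0.75, -0.73 and -0.73 each had an adjusted p of 0.672 (limma). Arl8a passed 1200 bp by the span of the wild-type peaks alone, so the rule bears on its difference.

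Several members at genes of transcription and chromatin, named after their values were seen, were also narrower in both Chd7-/- libraries. Polr2a, the largest subunit of RNA polymerase II, had 758 and 683 bp in the Chd7-/- libraries, against 999 and 1234 bp in the wild-type libraries. Its called bases ended 107 and 93 bases past the start site in the Chd7-/- libraries and 454 and 558 bases past it in the wild-type libraries. Trim28, a co-repressor recruited by zinc finger proteins, had 881 and 890 bp in Chd7-/- cells and 1166 and 1194 bp in wild-type cells, ending at 646 and 654 bases in Chd7-/- cells and at 1032 and 968 bases in wild-type cells. Kmt5b, a histone H4 lysine methyltransferase, had 666 and 915 bp in the Chd7-/- libraries and 1309 and 1276 bp in the wild-type libraries. At Pcbp1, a poly(C)-binding protein, the difference lay upstream: 972 and 765 bp were called in Chd7-/- cells and 1233 and 1290 bp in wild-type cells, with the downstream end at 83 and 81 bases against 72 and 123 bases. Polr2a, Trim28 and Pcbp1 passed 1200 bp by the span of the wild-type peaks alone, so the rule bears on their differences.

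**Figure D3:**
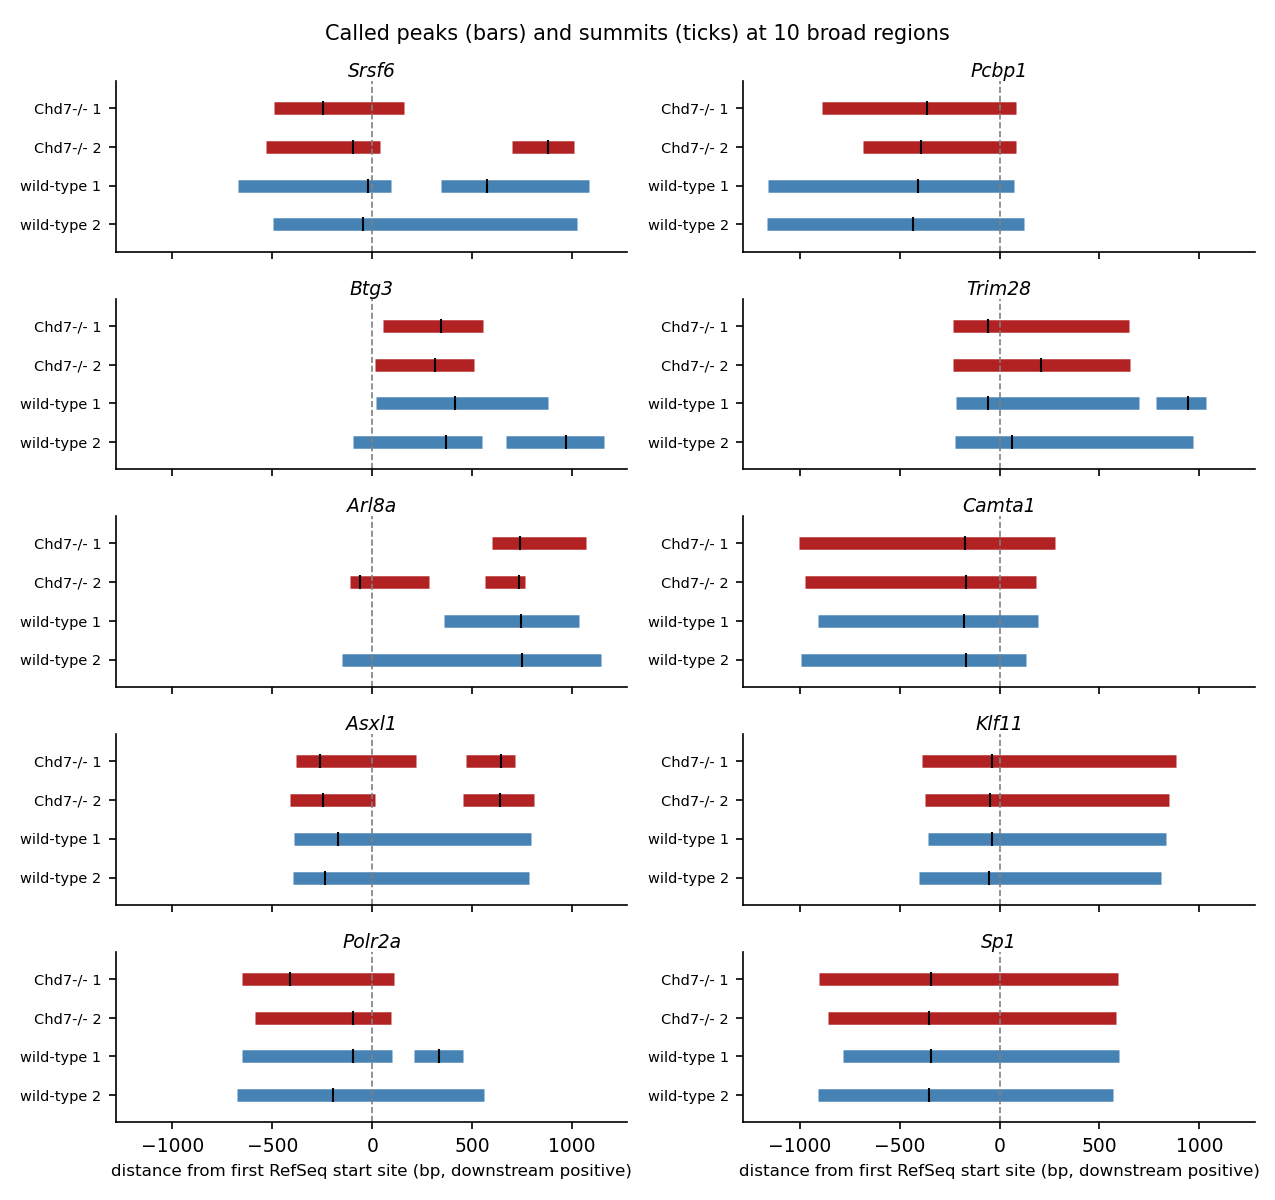
Called peaks (bars) with their summits (ticks) in the 4 libraries at 10 broad regions, against distance in bp from the first RefSeq start site in the region, downstream positive. At Asxl1 both Chd7-/- libraries have 2 peaks and both wild-type libraries 1; at Klf11 and Sp1 all 4 libraries have 1 peak of similar extent.

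Member bases were counted one by one across the 4 libraries. Of 159311 bases in the 113 regions, 109273 (68.6%) were called in all 4 libraries. Bases called in both wild-type libraries and in neither Chd7-/- library came to 6665 (4.18%), in 62 members, and bases called in both Chd7-/- libraries and in neither wild-type library to 1045 (0.656%), in 28 members. These counts, and those by side of the start site below, were made in members only, with no share over all regions. Width chose the members, and 34 passed 1200 bp by the wild-type span alone against 17 by the Chd7-/- span alone. The rule therefore bears on these counts. In the 58 members with start sites on 1 strand, the bases called in wild-type cells alone lay mostly downstream of the first start site, 3189 there against 584 upstream; bases called in Chd7-/- cells alone came to 292 downstream and 173 upstream. The median downstream reach was 597 and 623 bases in the Chd7-/- libraries, against 646.5 and 649.5 bases in the wild-type libraries, and the upstream reach was 514 and 533.5 bases, against 475.5 and 544.5 bases, where the groups overlapped. Downstream, the regions under 1200 bp reached 224 and 203 bases in Chd7-/- libraries and 232 and 262 bases in wild-type libraries.

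The 7 members wider in both Chd7-/- libraries included Sp3, a GC box-binding factor, with 1153 and 1122 bp in the Chd7-/- libraries and 1088 and 1092 bp in the wild-type libraries, and Klf11, a Krüppel-like repressor, with 1273 and 1221 bp against 1193 and 1214 bp. Camta1, a calmodulin-binding transcription activator, had 1284 and 1156 bp in Chd7-/- cells and 1102 and 1127 bp in wild-type cells (log2 difference 0.21 ± 0.08, SE, limma, adjusted p = 0.672). The region next to Mid1, an E3 ubiquitin ligase, had 1233 and 1214 bp against 1155 and 1151 bp, and the region of Fiz1 and Zfp524, both zinc finger genes, 1543 and 1513 bp in Chd7-/- cells against 1477 and 1466 bp in wild-type cells. The largest value among the 7, and among all members, a log2 difference of 1.43 ± 0.39 (SE, limma, adjusted p = 0.672), was at a high-background region over the non-coding gene Gm16090, linked to Dsg2 only by distance, where 1434 and 639 bp were called in the Chd7-/- libraries and 276 and 511 bp in the wild-type libraries. The last was a high-background region on chromosome 14 without a gene within 100 kb.

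Summit height was not used to choose the members. It was taken as the number of fragments piled up at the highest summit of a region, and its median over members was 49 and 42 in the Chd7-/- libraries and 45 and 53 in the wild-type libraries, with overlapping groups. Over all regions the medians were 26 and 23 in Chd7-/- libraries and 24 and 28 in wild-type libraries. The order of the libraries was thus the same in the broad regions and in all regions, with the 2 h wild-type library highest and the 2 h Chd7-/- library lowest. The deposited fold enrichment over background, the authors' own value, had medians of 8.68 and 8.15 in Chd7-/- libraries and 8.58 and 8.55 in wild-type libraries at the members. Over all regions its medians were 9.06 and 8.55 in Chd7-/- libraries and 9.20 and 9.30 in wild-type libraries. In each library the broad regions thus had taller summits but a lower median enrichment than all regions.

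Summits were lower in both Chd7-/- libraries in 25 members (22.1%; 18.7% of all regions) and higher in both in 13 (11.5%; 9.2% of all regions). limma called no member for summit height, while it called 15 of all regions higher (0.172%) and 2 lower (0.023%) in Chd7-/- cells; 5 members were higher and 9 lower at an unadjusted p under 0.05 (12.4%; 8.92% of all regions), and the smallest adjusted p of a member was 0.235. Width and height together gave no overlap in few members: 11 were narrower and lower in both Chd7-/- libraries (9.73%; 6.25% of all regions), 3 were wider and higher (2.65%; 2.1% of all regions), 1 was narrower and higher (0.885%; 1.35%), and 1 was wider and lower (0.885%; 1.43%). The highest summits of a member lay a median of 33 bp apart between the 2 Chd7-/- libraries, 41 bp between the 2 wild-type libraries, and 48 bp between genotypes in both the 1 h and the 2 h pair, against 30, 31, 31 and 31 bp over all regions.

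The 11 members that were both narrower and lower in the Chd7-/- libraries included Srsf6, Asxl1, Kmt5b, Trim28 and the Cbx5 and Hnrnpa1 promoter described above, and also Kmt2c, Ipo5 and Mnt, named after their values were seen. Kmt2c, a histone H3 lysine 4 methyltransferase, had 34 and 34 fragments at its summit in the Chd7-/- libraries, against 41 and 42 in the wild-type libraries, over 1029 and 1198 bp against 1308 and 1216 bp. Ipo5, a nuclear import receptor, had 95 and 77 fragments in Chd7-/- cells and 104 and 111 in wild-type cells, over 985 and 943 bp against 1177 and 1166 bp. At Kmt5b the summits held 33 and 35 fragments in the Chd7-/- libraries and 40 and 47 in the wild-type libraries. Mnt, a MAX-binding repressor that opposes MYC, had 40 and 36 fragments in Chd7-/- cells against 42 and 55 in wild-type cells inside the gene. At Kmt2c the 2 replicates of each genotype differed by at most 1 fragment; at Mnt the wild-type replicates lay farther apart than the nearest libraries of the 2 genotypes.

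Other members, named after their values were seen, kept nearly the same interval in all 4 libraries. Rfx1, a winged-helix transcription factor gene, had 1184 and 1201 bp in the Chd7-/- libraries and 1175 and 1192 bp in the wild-type libraries. Lnpep, an aminopeptidase gene, had 1251 and 1228 bp against 1284 and 1255 bp, and Ddias with Prcp had 1238 and 1180 bp in Chd7-/- cells against 1238 and 1214 bp in wild-type cells. At the other end, Oxct1, a ketone body enzyme gene named on the same basis, had 1144 and 397 bp in the Chd7-/- libraries and 470 and 456 bp in the wild-type libraries, so that 1 library alone made the region broad. Called width reached 1200 bp in all 4 libraries in 26 members, in 3 libraries in 6, in 2 in 16, in 1 in 27 and in no single library in 38. By library it did so in 42 and 35 members in the Chd7-/- libraries, against 45 and 59 in the wild-type libraries.

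The member that was narrower and higher was the region of E2f1 (chr2:154569078-154570303), a transcription factor of S-phase entry. Its summit held 62 and 56 fragments in the Chd7-/- libraries, against 46 and 53 in the wild-type libraries, while 756 and 833 bp were called in Chd7-/- cells and 1174 and 1171 bp in wild-type cells. Sp1, the founding GC box factor, had 123 and 115 fragments in the Chd7-/- libraries and 97 and 110 in the wild-type libraries (centred log2 difference 0.28 ± 0.11, SE, limma, adjusted p = 0.354), with widths of 1500 and 1444 bp against 1383 and 1481 bp that overlapped. A region inside Agpat4, a lipid acyltransferase gene, had 55 and 41 fragments in Chd7-/- cells and 34 and 38 in wild-type cells, and the region of Hnrnpf, an RNA-binding protein gene, and 4933440N22Rik had 54 and 50 against 44 and 43. Adjusted p-values of these 4 members lay between 0.271 and 0.505 (limma).

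The largest deficits in summit height relative to wild-type cells were at Nr3c1 and Kansl1. Nr3c1 encodes the glucocorticoid receptor, which takes part in the proliferation of erythroid progenitors under stress, and the region lay inside the gene, with 18 and 21 fragments in the Chd7-/- libraries against 32 and 33 in the wild-type libraries (centred log2 difference -0.63 ± 0.23, SE, limma, adjusted p = 0.322). Kansl1, a subunit of a histone acetyltransferase complex, had 18 and 17 fragments in the Chd7-/- libraries and 30 and 29 in the wild-type libraries (-0.64 ± 0.25, SE, limma, adjusted p = 0.368). In both regions the replicates lay within 3 fragments of each other and the groups were well apart. With deposited fold enrichment in place of pileup the log2 differences were smaller. They were -0.23 at Nr3c1 and -0.25 at Kansl1 (limma, adjusted p = 0.891 and 0.844). Cpeb2, a translation regulator, had 50 and 39 fragments in Chd7-/- cells against 54 and 68 in wild-type cells. The shared promoter of Gin1 and Ppip5k2, the second an inositol pyrophosphate kinase, had 56 and 36 fragments against 58 and 63, and Fiz1 with Zfp524 had 50 and 40 against 64 and 58.

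The widest members were of a different kind from the rest. In 9 members the local background was above 10 fragments in every library. The widest, chr1:24611588-24616131 over the pseudogenes Gm10222 and Gm10925, was 4540 and 4540 bp in the Chd7-/- libraries and 4537 and 4542 bp in the wild-type libraries, with summits of 396 and 391 fragments against 391 and 391. The second, chr17:39843058-39847293 over the ribosomal RNA pseudogene Rn18s-rs5, was 4054 and 3968 bp in Chd7-/- cells and 4153 and 4138 bp in wild-type cells. The next in width lay over predicted genes on chromosome 9 (2651 bp) and at Crlf2, a cytokine receptor gene (2334 bp), and the tenth at Sp4 (1611 bp). Without the 9 regions the medians of called width were 1091.5 and 1068.5 bp in Chd7-/- libraries and 1145 and 1194.5 bp in wild-type libraries, and split regions numbered 35 and 25 against 20 and 21. Whether copies of these sequences elsewhere in the genome add fragments was not tested.

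**Figure D4:**
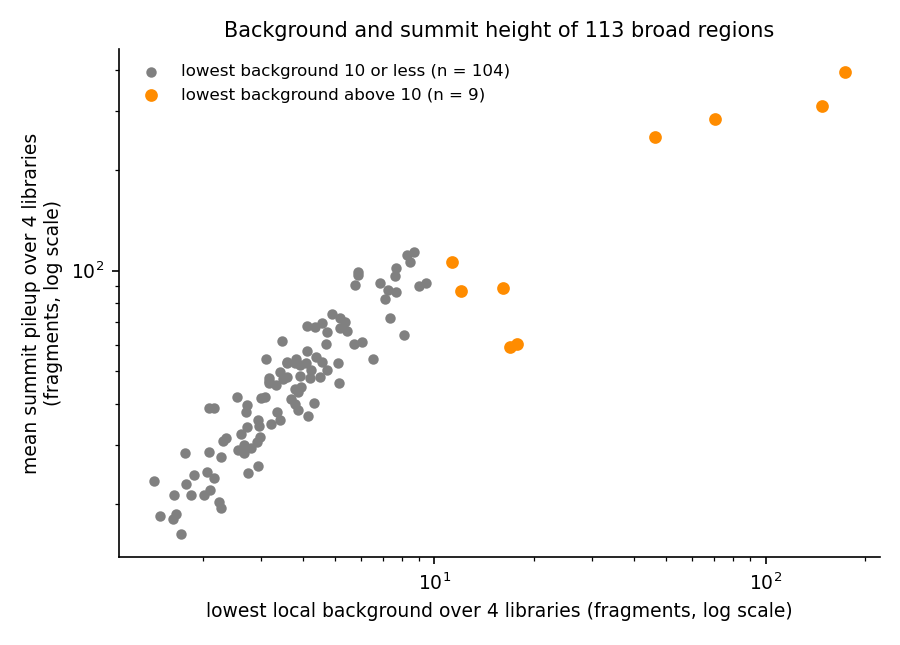
Mean summit pileup over the 4 libraries against the lowest local background, both in fragments on log scales, for each of the 113 broad regions. The 9 regions with a background above 10 in every library include the widest 4 regions.

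The remaining members among the widest 10 lay at promoters or inside genes. The region of U2af2, a splicing factor that binds the polypyrimidine tract, and Ccdc106 (1816 bp) was called over 1643 and 1593 bp in the Chd7-/- libraries and 1477 and 1698 bp in the wild-type libraries. A region inside Ywhaz, a 14-3-3 adaptor protein gene (1700 bp), had 1208 and 1679 bp in Chd7-/- cells against 1412 and 1441 bp. Hcfc1, a transcriptional co-regulator on the X chromosome (1649 bp), had 1219 and 907 bp against 1531 and 1158 bp, and Ankrd10 (1636 bp) 1292 and 1386 bp in Chd7-/- cells against 1435 and 1630 bp in wild-type cells. Of these 4 regions only Ankrd10 had groups that did not overlap. The region at Gt(ROSA)26Sor, the locus widely used for transgenes because it is open in most tissues, was likewise named after its values were seen and had 1558 and 1537 bp in Chd7-/- libraries and 1513 and 1557 bp in wild-type libraries.

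Most of the broad regions lay at genes. Of 113 members, 79 (69.9%, exact binomial interval 60.6% to 78.2%, counting of regions only) were within 1 kb of an end of a protein-coding gene, against 68.4% of all 8698 regions and 81.0% of the regions of 900 to 1199 bp, and 21 of the 79 touched 2 or more genes. The other 34 divided into 17 inside a protein-coding gene and 17 outside. With chromosome 18 left out, RefSeq start sites lay on both strands in 21.3% of 108 members, against 12.5% of all regions and 21.7% of regions of 900 to 1199 bp. Examples of such two-way promoters were Hdlbp with Septin2, Utp18 with Mbtd1, Dtl with Ints7, Ewsr1 with Rhbdd3, and Cbx5 with Hnrnpa1. Clusters of transfer RNA genes lay in 2 members without a start site in the table, with 4 such genes near Trim55 and 3 at Mrpl58. Members seldom neighboured each other: 2 pairs lay within 100 kb, Fiz1 with U2af2 on chromosome 7 and Ing1 with Ankrd10 on chromosome 8.

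The promoters in broad regions were rich in CG dinucleotides. In 81 members with RefSeq entries there were 134 promoter windows of 105 genes, with a median of 29 CG dinucleotides in 300 bases, against 24 in promoters of narrower regions called in all 4 libraries and 7 in all 32585 promoters. A GC box (GGGCGG, both strands) was found in 79.9% of the members' windows, against 74.2% in narrower regions and 35.9% of all promoters. The ETS motif CCGGAAG was found in 14.2% of the members' windows, against 25.2% in narrower regions and 8.92% of all promoters, and the GATA motifs AGATAA or TGATAA in 5.97%, against 7.69% in narrower regions and 18.6% of all promoters. The RUNX motif TGTGGT was found in 8.21%, against 11.2% in narrower regions and 16.6% of all promoters. Windows of 1 gene or of 2 facing genes overlap in part, and a match of letters is not a bound site.

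**Figure D5:**
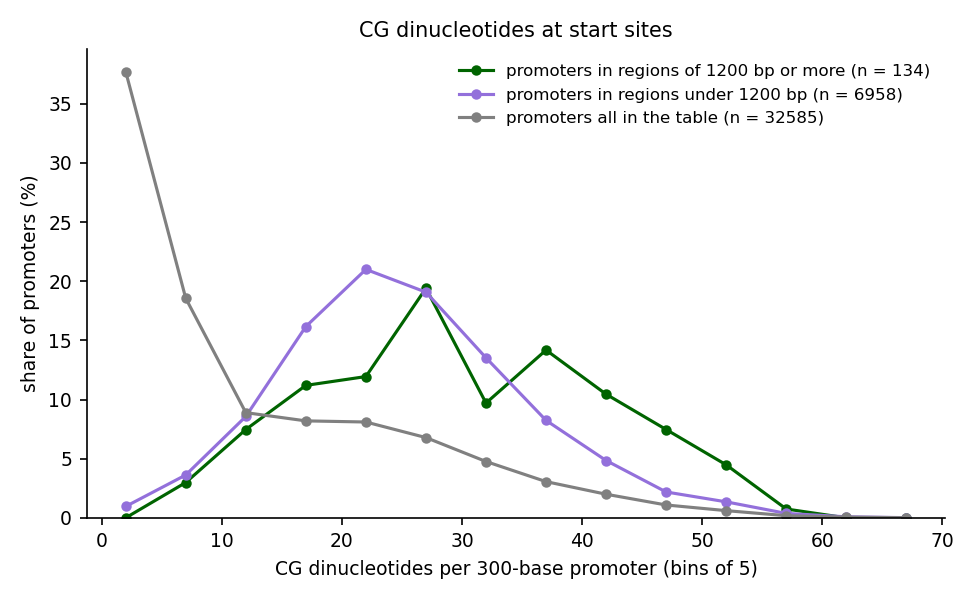
Share of promoters (%) by the number of CG dinucleotides in the 300-base window, in bins of 5, for 134 promoters in broad regions, 6958 in narrower regions called in all 4 libraries, and all 32585 in the RefSeq table. The median was 29 in broad regions, 24 in narrower regions and 7 in all promoters.

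No gene of the erythroid programme lay at a broad region. None of the 47 genes was linked to a member, although 29 of them had a region called in all 4 libraries; over all protein-coding genes 131 of 21631 (0.606%) were linked to a member, and 0.606% of 47 is less than 1 gene. Gata1 had 1 region of 336 bp, Kit 1 of 459 bp and Runx1 2 of at most 495 bp, and none of them reached 1200 bp. The lists of immediate early genes, cytokine signalling genes, heat shock genes, and stem and mast cell, megakaryocyte, myeloid, lymphoid and neural crest genes had no member either. Of 55 haematopoietic factors 3 (5.45%) had a member: Erg, Etv6 and Elf1, all of the ETS family. Elf1, whose region is shared with Wbp4, had 1243 and 1186 bp in the Chd7-/- libraries and 1144 and 1242 bp in the wild-type libraries. At Etv6, with the largest negative log2 width difference of any member (-0.97, limma, adjusted p = 0.821), only 200 bp were called in 1 Chd7-/- library and 1011 bp in the other, against 882 and 982 bp in the wild-type libraries. The member inside Erg had 854 and 1124 bp in Chd7-/- cells and 1045 and 1046 bp in wild-type cells. In none of the 3 did the genotypes separate.

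The lists of genes used in most cells gave the other matches. Of 36 splicing factor genes 3 (8.33%) were linked to a member, Srsf6, U2af2 and Hnrnpa1, and of 20 housekeeping genes 2 (10%) were, Ywhaz and Polr2a. Over all protein-coding genes 131 of 21631 (0.606%) were, but only 8259 (38.2%) were linked to any region called in all 4 libraries. In these lists 35 of 36 and 20 of 20 genes were linked to such a region, so 0.606% is not a like base for them. Of 36 chromatin remodeller genes only Srcap, the ATPase that exchanges histone H2A.Z, had a member, with 1273 and 1217 bp in the Chd7-/- libraries and 1229 and 1215 bp in the wild-type libraries. Of 36 cell cycle genes only E2f1 did. Of 40 histone genes only H1f2, a linker histone, did, with 864 and 765 bp in Chd7-/- cells and 1066 and 1024 bp in wild-type cells, split into 2 peaks in all 4 libraries. The member with most separate peaks in Chd7-/- cells was the promoter of Sin3a, a co-repressor scaffold, with 3 peaks in 1 Chd7-/- library and 1 in the other, against 1 and 2 in the wild-type libraries; a member inside Gse1 had 3 peaks in 1 wild-type library and 1 in each other library. Adjusted p-values are not given for these lists, which were chosen with earlier results of these data known.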

How the data were processed

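The 4 files were peak lists, 1 per library, called without pooling replicates. Per the submitters' processing notes the tools were Bowtie2 2.2.1 and MACS2 2.1.0, with no role stated. Threshold, control, read shift and filters are not given in the sources used. The deposited peak names give GRCm38. The authors' caller gave each peak a score, a fold enrichment (a linear ratio of summit pileup to background), a −log10 p and a −log10 q, all deposited as they were used here.

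Peaks on chromosomes 1 to 19 and X were merged wherever they overlapped. Called width is the sum of bases called in a library within a region. The whole-number summit pileup and the background were computed from the deposited fold enrichment, (pileup + 1) / (background + 1), and the Poisson −log10 p, within 0.001, for 100% of peaks; comparing them assumes that the caller did not rescale libraries. Log2 width and log2(pileup + 1) were centred on each library's median and compared with limma 3.58.1 (R 4.3.3, trended variance) over 8698 regions, with Benjamini-Hochberg adjustment and a threshold of 0.05. Values per library are given without a test, since an exact permutation test over 6 assignments cannot go below 0.333. On simulated data the width fit recovered 91 of 100 changes of 1 log2 unit and 17 of 100 of 0.5, over 8698 regions. The pileup fit recovered 87 and 14 of 100, also over 8698 regions. Whether the fits recover such shares in the measured regions was not tested. The SE of log2 width differed between measured regions, with 0.08 at Camta1 and 0.39 at the Gm16090 region (limma). Pileups were recovered for 5000 of 5000 simulated peaks. Genes and promoters came from RefSeq tables of GRCm38.p6. A region was linked to genes with an end within 1 kb, otherwise to the nearest end within 100 kb. A start site is the table's entry, which can differ from the gene's outermost one.

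Members named were the widest 10, the 3 on each side of the width limit, up to 5 in each direction for width among those whose groups did not overlap and for pileup by p, list members and those with most peaks; others are said to be chosen after their values were seen. The members and the gene lists were chosen with earlier results of these data known. Alternatives were other width limits, a −log10 q of at least 5, lists of equal length, merging within 100 bp, called span, no centring, a pseudocount of 5, deposited fold enrichment in place of pileup, 500 bp gene edges, a replicate block and each library left out; leaving out high-background regions was added after the data were seen.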

Additional observations from a re-analysis of the deposited data

Results flagged for a closer look

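Summit height differed in direction between the labelled times. The median highest summit of the members was 4 fragments higher in the Chd7-/- than in the wild-type library at 1 h and lower there at 2 h (a difference of -11). Over all regions the differences were 2 and -5, so this turn was not particular to the members. The members' deposited fold enrichment also turned, with a difference of 0.101 at 1 h and -0.399 at 2 h. Over all regions it was lower in the Chd7-/- library at both times (-0.138 and -0.746). The members' reach upstream of the first start site differed by 38.5 bases at 1 h and -11 at 2 h. In regions under 1200 bp it turned too, with 5 and -19 bases. There was 1 library per genotype at each time, and these differences between times were not tested. The lowest background, which stands in for depth, was 1.04 fragments in the Chd7-/- and 0.787 in the wild-type library at 1 h, and 1.01 and 1.08 at 2 h; its part in the result was not tested.

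Outside the chromosomes used, regions of the same breadth were called in all 4 libraries. Mitochondrial regions were 3332 and 3520 bp wide, with deposited fold enrichments of 1.23 to 1.63, and 1 region on the Y chromosome was 1249 bp wide.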

How the results depend on the processing

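The number of members followed the width limit, with 475 at 1000 bp and 22 at 1500 bp. Members wider in both Chd7-/- libraries numbered 11, not 7, when the span from first to last called base replaced called bases. Leaving out each library in turn gave 15 to 29 members wider and 51 to 66 narrower in every Chd7-/- library left, since fewer libraries have to be apart, while the difference in median width ran from -86 to -33 bp (without WT replicate 1 and without WT replicate 2) and that in split members from 7 to 15. With −log10 q of at least 5 the split difference was 6.5, and without high-background regions the median difference was -89.75 bp. limma called no member for width under any alternative. For summit height it called 1, with peaks merged within 100 bp: a region at Lpar5 (chr6:125088758-125090198), under 1200 bp otherwise. It had 23 and 13 fragments in Chd7-/- libraries against 42 and 42 in wild-type libraries (log2 difference -1.15, limma, adjusted p = 0.00292). Its called widths were 678 and 451 bp against 1240 and 1163 bp. In the main fit limma had already called 2 regions of 900 to 1199 bp for summit height. The lowest log2 difference among regions of that width was -1.15 there too. The alternative thus changed which regions were members. Sp3's log2 width difference turned to -0.0096 with −log10 q of at least 5; the cause was not tested. Of the recomputed summaries 82 held and 10 did not. A count held if it stayed close to the main one, a difference if it kept its sign, and a share if it stayed in the main interval. Many of the 82 were limma counts of 0 that stayed 0. Of the recomputed values of named regions, 207 kept their direction and call and 1 did not. All that changed are given above. The replicate block called 0 members for width and 0 for summit height. Deviations of same-numbered libraries correlated at 0.02 for width and 0.0018 for height over 8698 regions. Each library was centred on its median first, which takes out library-wide effects, so this correlation cannot tell whether same-numbered libraries share a batch. Unknown depth and 2 libraries a genotype limit every comparison.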
